A study of Homo sapiens with 6 samples.

Results

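The chemokine system of the human genome was examined in open chromatin maps of GM12878 cells, a lymphoblastoid line of B cells immortalised by Epstein-Barr virus. Its members were the autosomal protein-coding genes of GENCODE version 44 on hg19 whose symbols were CCL, CXCL, XCL or CX3CL for ligands and CCR, CXCR, XCR, CX3CR or ACKR for receptors, followed by a number. This gave 66 of 19229 autosomal protein-coding genes, of which 45 were ligands and 21 were receptors. CXCR3, the receptor of the interferon-induced ligands, lies on chromosome X and was outside this rule.

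The data were peak lists of 6 bulk ATAC-seq libraries, an assay in which the Tn5 transposase inserts adapters into accessible DNA. All libraries came from GM12878 cells fixed with 1% formaldehyde, at 50000 cells per reaction, and they differed in how the crosslinks were reversed. The labels give the same temperature of reverse crosslinking for all 6 libraries. The SDS group was treated in the old buffer with 1% SDS, followed by DNA purification. The second group was treated in a new buffer without SDS and purified, and the third in the new buffer and amplified without DNA purification, with 2 replicates in each of the 3 groups. The purification step of the second group is given by the study and not by its label. The study's methods also give the buffers different salt and detergents, and give the unpurified workflow an EDTA quench and a final heat step. Fixed cells of 1 line were used throughout, no unfixed library was analysed here, and nothing in the labels says that replicates came from separate cultures.

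Chemokines are small secreted proteins that steer migrating cells along a gradient, and they act through receptors of the G protein-coupled family. Homeostatic ligands position lymphocytes in lymphoid organs, whereas inflammatory ligands are switched on by activation and recruit leukocytes to tissue. Atypical receptors bind chemokines without the usual G protein signal and take them up or present them. In B cells, CXCR5 directs entry into follicles where its ligand CXCL13 is made, CCR7 directs cells to the T zone, CXCR4 answers to CXCL12, and CCR6 answers to CCL20. Peaks show accessible DNA and not transcripts, so none of the values here is an expression level.

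Short stretches are given at the summits of the strongest regions of 2 ligands and 4 receptors, those with the highest mean fold enrichment in their class among regions that all libraries called away from promoters of other genes. CX3CL1, the next ligand, is not shown because its summit lies in an untranslated region. Each stretch is the 100 bases on each side of the median summit in GRCh37, which is hg19, in the direction of the gene, and CCL3 was cut where an untranslated region begins. Capitals mark letters that match the NF-kB or RUNX (TGTGGT) motif on either strand. ACKR3, CCR8 and ACKR2 held an NF-kB match, and CXCL13, CCL3 and CX3CR1 a RUNX match. Matches played no part in the choice of these members, and each of these motifs was in 20% of all 20 member regions called by all libraries.
CXCL13, chr4:78508148-78508348, plus strand: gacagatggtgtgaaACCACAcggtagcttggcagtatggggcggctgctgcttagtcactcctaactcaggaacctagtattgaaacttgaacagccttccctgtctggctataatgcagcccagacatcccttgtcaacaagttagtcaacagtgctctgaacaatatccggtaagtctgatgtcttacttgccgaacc
CCL3, chr17:34417490-34417652, minus strand: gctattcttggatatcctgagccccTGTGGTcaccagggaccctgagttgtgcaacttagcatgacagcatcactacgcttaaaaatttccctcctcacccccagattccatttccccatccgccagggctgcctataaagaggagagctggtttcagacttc
ACKR3, chr2:237478250-237478450, plus strand: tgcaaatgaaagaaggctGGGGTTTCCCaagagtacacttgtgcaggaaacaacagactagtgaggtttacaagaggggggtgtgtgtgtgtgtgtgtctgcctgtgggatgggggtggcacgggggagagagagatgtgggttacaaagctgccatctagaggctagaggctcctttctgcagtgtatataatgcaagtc
CCR8, chr3:39369475-39369675, plus strand: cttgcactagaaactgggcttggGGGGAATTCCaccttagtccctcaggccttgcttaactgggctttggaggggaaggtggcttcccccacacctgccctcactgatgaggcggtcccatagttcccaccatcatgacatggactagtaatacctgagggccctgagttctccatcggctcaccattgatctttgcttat
ACKR2, chr3:42922565-42922765, plus strand: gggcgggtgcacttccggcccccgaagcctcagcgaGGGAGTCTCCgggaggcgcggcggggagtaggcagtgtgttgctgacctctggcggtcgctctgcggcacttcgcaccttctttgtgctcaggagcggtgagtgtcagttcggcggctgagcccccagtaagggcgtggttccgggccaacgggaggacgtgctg
CX3CR1, chr3:39309337-39309537, minus strand: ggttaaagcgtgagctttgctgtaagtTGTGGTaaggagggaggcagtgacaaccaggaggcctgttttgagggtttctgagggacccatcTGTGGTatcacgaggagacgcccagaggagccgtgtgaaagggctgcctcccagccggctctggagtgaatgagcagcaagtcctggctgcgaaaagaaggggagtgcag

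Receptor genes more often held an open region than ligand genes, and both did so less often than protein-coding genes as a whole. A gene counted as open in a library where at least 1 bp of a peak lay in its body or the 5 kb on each side. In all 6 libraries this held for 9 of 21 receptors (42.9%) and 8 of 45 ligands (17.8%), against 59.6% of all autosomal protein-coding genes. In at least 1 library it held for 14 receptors and 14 ligands, against 76.3% of all genes. The other 31 ligands and 7 receptors had no peak in any library. These are counts of genes, which are not replicates, and they carry no test.

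The share of receptors with a peak was 53.2% ± 4.68 (SD, n = 6 libraries), and the share of ligands was 23.0% ± 2.30. The difference, receptors minus ligands, was 30.2 ± 3.42 percentage points and lay between 25.4 and 34.9 in the 6 libraries, so the ranges of the 2 classes did not overlap. All genes stood at 68.3% ± 1.58. Ligand genes are short, with a median of 3717 bp against 11704 bp for receptors and 27568 bp for all genes, so their windows hold less DNA. Per 100 kb of merged window there were 1.64 ± 0.242 peaks for ligands, 2.39 ± 0.298 for receptors and 1.66 ± 0.117 for all genes (SD, n = 6 libraries). Per length of window, ligands thus stood at the value of all genes, and receptors stood above ligands in 6 of 6 libraries. Within 1 kb of a start, where gene length does not set the window, 8.89% of ligands, 17.5% of receptors and 53.3% of all genes had a peak. These are means over the 6 libraries. The part of gene length in the shares was not tested. Receptors minus ligands, the difference in share was 20.2 points when only the 5 kb around the gene start was read.

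**Figure D1:**
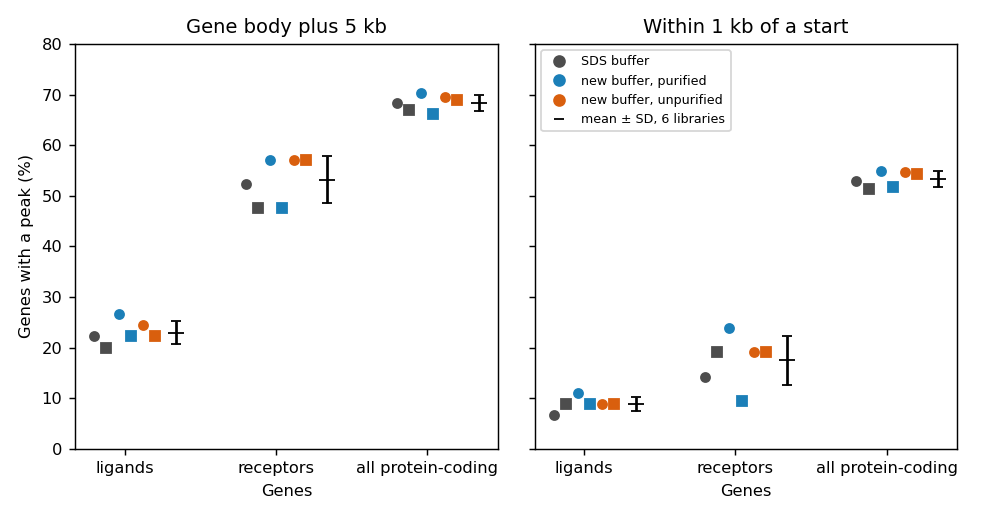
Share of genes with a peak (%, vertical axis) in the gene body plus 5 kb (left) and within 1 kb of a start (right), for ligands, receptors and all autosomal protein-coding genes. Each circle is replicate 1 and each square replicate 2 of a protocol, and bars are mean ± SD over 6 libraries. In the left panel every receptor share, from 47.6 to 57.1%, lies above every ligand share, from 20 to 26.7%, and below every share of all genes.

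In some of these windows the peaks lay at the start of a neighbouring gene. Without peaks within 1 kb of a start of another protein-coding gene, 4 ligands and 8 receptors were open in all 6 libraries, against 54.5% of all genes under the same reading, and 10 ligands and 12 receptors in at least 1 library, against 72.7%. The ligands that left the count were CXCL16, whose region lay at the promoter of MED11, CXCL17 at LIPE, CXCL9 at ART3 and CCL27 at a gene listed only by its Ensembl identifier. The receptor that left it was CCR10, whose region lay at the promoter of PLEKHH3. CCR3, whose region lay at the promoter of CCR1, also left the receptors open in at least 1 library. The difference between the classes was then 32.8 ± 2.0 percentage points (SD, n = 6 libraries).

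Promoters of chemokine genes were rarely open. Within 1 kb of a start of its own coding transcripts, a peak stood in all 6 libraries for 5 of 66 members (7.58%), namely the receptors CXCR4 and ACKR3 and the ligands CCL3, CCL20 and CX3CL1, against 45.4% of all genes. In at least 1 library it stood for 13 members, 6 ligands and 7 receptors, against 60.5% of all genes. The share per library was 17.5% ± 4.92 for receptors and 8.89% ± 1.41 for ligands (SD, n = 6 libraries). The difference ran from 0.635 to 12.7 points, and it was smallest in replicate 2 of the purified new buffer, the library with the fewest peaks. The 8 members with a promoter peak in some libraries only were CCR7 and CXCL3 in 4, ACKR1 and CCR1 in 2, and CXCR5, CCR6, CXCL10 and CCL28 in 1. With 250 bp around a start in place of 1 kb, CX3CL1 kept a promoter peak in 2 libraries, and CXCR4, ACKR3, CCL3 and CCL20 in all 6. The CX3CL1 peaks lay at a coding start inside the gene and not at its 5′ end.

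The 66 windows merged into 61 stretches and held 46 regions, each a union of overlapping peaks of the 6 lists. Of these, 21 belonged to ligands and 25 to receptors, and 1 region, at CCR1, lay in the windows of both CCR1 and CCR3. All 6 libraries called 20 of the 46 regions (43.5%), against 35.6% of all autosomal regions and 40.4% of autosomal regions in the window of any protein-coding gene. For 39 regions away from promoters of other genes the share was 35.9%. The 20 regions divided into 6 at a promoter of the member, 6 at the promoter of another gene, 5 in a gene body and 3 in a flank. A library called between 25 and 34 of the 46 regions (54.3 to 73.9%), against 51.9 to 65.9% of all autosomal regions.

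**Figure D2:**
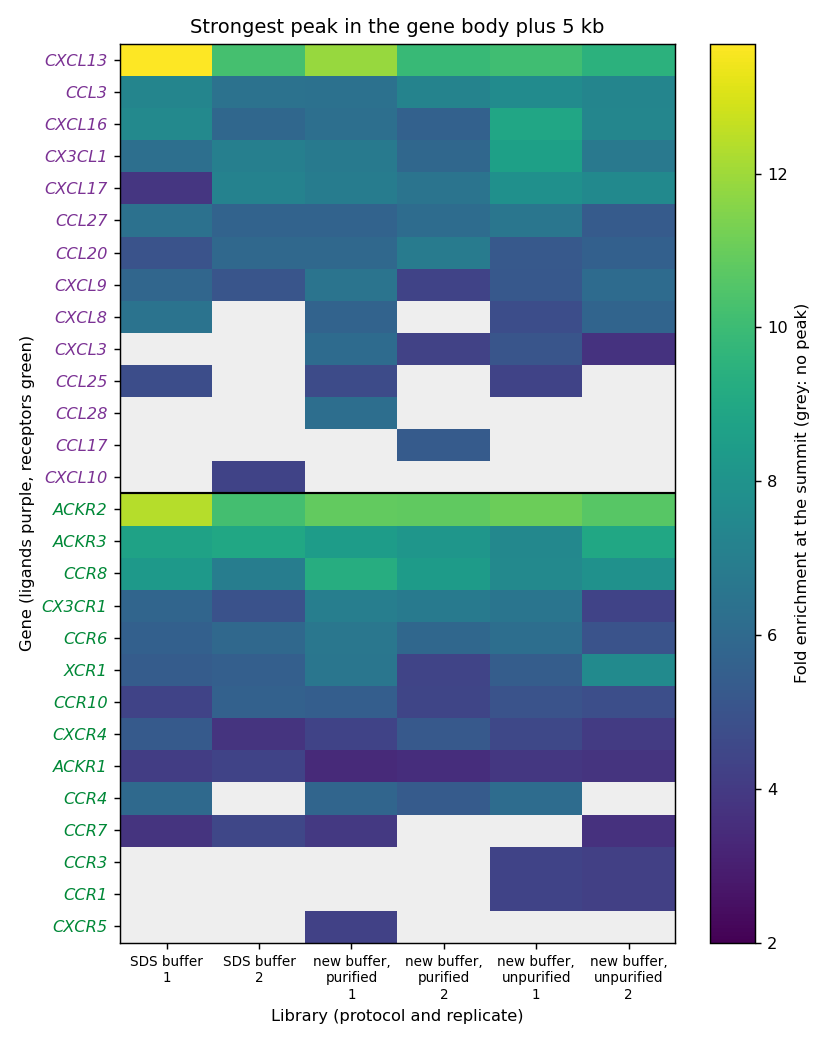
Fold enrichment at the summit of the strongest peak in the window of each member (colour) for the 28 members with a peak, in the 6 libraries, with ligands above the line and receptors below it. Grey marks no peak. CXCL13 and ACKR2 hold the highest values, and 17 members are coloured in all 6 libraries. CCR1 and CCR3 share 1 region.

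Signal at these regions was lower in the median than at other regions, but within their quartiles. Fold enrichment, the pileup at the summit over the local background, had a median of 5.94 over the 20 member regions. Over 19364 autosomal regions called by all libraries the median was 6.82, with quartiles of 5.83 and 8.08, so the member median lay near the lower quartile. The summit pileup, in reads solved from the deposited fold enrichment and p value, had a median of 26.8 against 29.2. The weakest of the 20 regions averaged 14.8 reads, in an intron of XCR1, and the strongest 62.5 reads, at the promoter of ACKR3. Regions that only 1 to 5 libraries called had pileups of 10 to 28 reads at their calls, with a median of 16. A missing call does not show that a site was closed.

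Among the receptors of B-cell homing, all 5 autosomal genes had a peak in at least 1 library, and 3 of them in all 6, against 76.3% and 59.6% of all genes. Of these, CCR10 was open only at the promoter of its neighbour PLEKHH3. CXCR4, the receptor for CXCL12 that holds B cells in marrow and germinal centres, had 2 adjacent regions at its starts, chr2:136873881-136875073 and chr2:136875132-136875913. The first had pileups of 40 and 30 reads with the SDS buffer, 37 and 40 with the purified new buffer, and 44 and 34 with the unpurified new buffer. The second had 25 and 24, 32 and 22, and 38 and 27 reads in the same order. In reads, the groups overlapped at the first region, while at the second both unpurified libraries lay above both SDS libraries. Fold enrichment at the second did not keep this order, with 3.31 in unpurified replicate 2 and 3.43 in SDS replicate 1. Mean fold enrichment was 4.54 ± 0.639 and 3.45 ± 0.423 (SD, n = 6), below the median of the member regions.

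CCR6, which answers to CCL20 and is carried by mature B cells, had its strongest region in an intron, 2272 bp from the nearest start, at chr6:167527361-167527875. Its pileups were 27 and 30 reads with the SDS buffer, 33 and 33 with the purified new buffer, and 31 and 29 with the unpurified new buffer. This was the narrowest spread among the 11 receptor regions called by all libraries relative to its mean, with 30.5 ± 2.35 reads (SD, n = 6). Another 4 CCR6 regions were called by 1, 1, 2 and 4 libraries, and the 1 of these at a start of CCR6 was called only by replicate 1 of the unpurified new buffer, with 14 reads.

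CCR7, the receptor for CCL19 and CCL21, was called at a promoter in 4 libraries, at different starts. The region at chr17:38721442-38721831 had 17 reads in SDS replicate 1, 20 in purified replicate 1 and 22 in unpurified replicate 2, and the region at chr17:38717239-38717638 had 22 reads in SDS replicate 2. CXCR5, the follicle receptor, had 1 peak, of 10 reads, 281 bp upstream of its start in purified replicate 1. CCR10, found on plasma cells and bound by CCL27 and CCL28, had no peak at its own promoter and a region of 29.7 ± 5.35 reads at PLEKHH3 (SD, n = 6).

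Of 4 atypical receptors, ACKR1, ACKR2 and ACKR3 were open in all 6 libraries and ACKR4 in none, against 59.6% and 23.7% of all genes. ACKR3, which takes up CXCL12 and so shapes its gradient, had the highest summit pileup of all member regions, at its promoter at chr2:237477944-237478780. It had 64 and 54 reads with the SDS buffer, 67 and 59 with the purified new buffer, and 56 and 75 with the unpurified new buffer. The groups overlapped, and fold enrichment was 8.45 ± 0.583 (SD, n = 6). Its summit window is the ACKR3 sequence printed above, which holds an NF-kB match.

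ACKR2, a scavenger of inflammatory CC chemokines, had 2 regions called by all libraries. The stronger, at chr3:42845387-42846338 with a fold enrichment of 11.0 ± 0.741 (SD, n = 6), lay at the promoter of HIGD1A. The gene model of ACKR2 begins there too, but none of its coding transcripts starts within 1 kb. The other, at chr3:42922359-42922931, lay in an intron, 25136 bp from the nearest coding start, with no annotated gene start within 1 kb. It had 12 and 14 reads with the SDS buffer, 23 and 21 with the purified new buffer, and 21 and 27 with the unpurified new buffer. Both SDS libraries were below all 4 libraries of the new buffer. ACKR1, which binds chemokines on red cells and vessels, had its region of all 6 libraries in the flank, at the start of the antisense gene CADM3-AS1, and a promoter region in 2 libraries with 27 and 25 reads.

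Of the 12 other receptors, CCR8, CX3CR1 and XCR1 were open in all libraries, against 59.6% of all genes. CCR8, known from regulatory and type 2 helper T cells, had a region 1625 bp upstream of its start at chr3:39369217-39369877. Pileups there were 40 and 32 reads with the SDS buffer, 46 and 36 with the purified new buffer, and 37 and 38 with the unpurified new buffer, and the summits of the 6 libraries lay within 62 bp. The protocols overlapped, and fold enrichment was 8.05 ± 0.805 (SD, n = 6). This is the second sequence above with an NF-kB match.

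CX3CR1, the fractalkine receptor of monocytes and cytotoxic lymphocytes, had an intronic region with 17 and 16 reads, 25 and 19 reads, and 20 and 14 reads in the SDS, purified and unpurified groups. XCR1, the receptor of cross-presenting dendritic cells for XCL1, had an intronic region with 15 and 13, 16 and 10, and 14 and 21 reads. A start of a gene listed only by its Ensembl identifier lay within 1 kb of it. Both regions overlapped between groups apart from CX3CR1 between the SDS and purified libraries. The window of CCR4 was open in 4 libraries through 3 flank regions of 11 to 16 reads. No peak was called at CXCR1, CXCR2, CXCR6, CCR2 or CCR9.

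**Figure D3:**
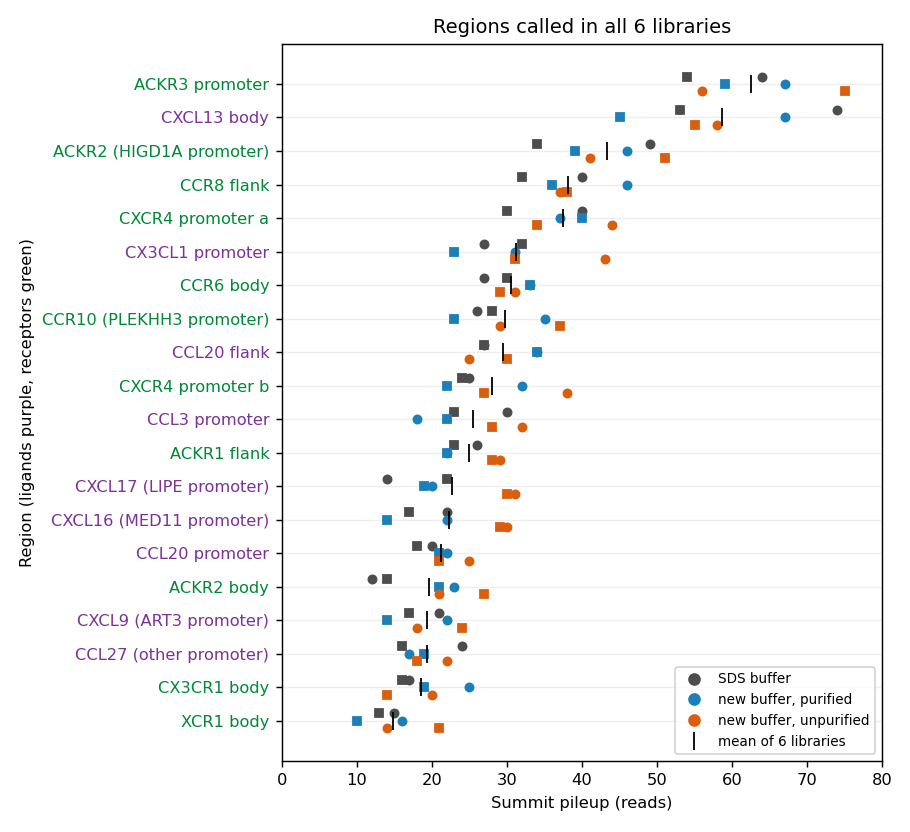
Summit pileup in reads (horizontal axis) of the 20 regions called in all 6 libraries, 1 row per region, ordered by the mean. Circles are replicate 1 and squares replicate 2, colours are the protocols, and black ticks are the means. ACKR3 and CXCL13 reach the highest values, and the SDS libraries lie left of all others at the intronic region of ACKR2.

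Of 10 ligands that activated B cells are known to make, 2 were open in all libraries and 7 in none. The shares of all genes were 59.6% and 23.7%. CCL3, a ligand of CCR1 made soon after B-cell receptor engagement, had a region over its start at chr17:34417116-34418082. It had 30 and 23 reads with the SDS buffer, 18 and 22 with the purified new buffer, and 32 and 28 with the unpurified new buffer. In reads, both purified libraries were below all other libraries. Fold enrichment, which is relative to the local background, was 7.04 ± 0.533 (SD, n = 6). By that measure purified replicate 2, at 7.23, lay above SDS replicate 2, at 6.38. The printed CCL3 sequence ends just before its coding start and holds a RUNX match.

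CXCL16, a membrane-bound ligand of CXCR6, was open only through the MED11 promoter in its flank. The T-cell attractant CCL17 had 1 peak, of 15 reads, in purified replicate 2, and its neighbour CCL22 had none. CCL4 and CCL5, attractants of monocytes and T cells, had none either. For CCL3L1, CCL3L3, CCL4L1 and CCL4L2, copies of CCL3 and CCL4, no peak was called, but 84.5 to 86.4% of the 75-base words in their windows occur again elsewhere in the genome. The share was 11.2% for CCL3 and 19.5% for CCL4. Reads within such words cannot be placed, and the part of this in the missing calls was not tested.

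Of 8 homeostatic ligands, CXCL13 and CCL27 were open in all libraries, against 59.6% of all genes, CCL25 in 3 and CCL28 in 1. No peak was called at CXCL12, CXCL14, CCL19 or CCL21, where 23.7% of all genes had none. CXCL13, the B-cell attractant of follicles, held the ligand region with the highest fold enrichment, 10.9 ± 1.60 (SD, n = 6), at chr4:78507915-78508685. Pileups were 74 and 53 reads with the SDS buffer, 67 and 45 with the purified new buffer, and 58 and 55 with the unpurified new buffer. The groups overlapped, and the ligand with the next highest fold enrichment away from other promoters was CCL3.

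The CXCL13 region was not a promoter. It lay in an intron of the longer gene model, 18726 bp before the nearer coding start, with no annotated gene start within 1 kb, and its summits lay within 110 bp across the libraries. The sequence of its summit is the first printed above, with 1 RUNX match. A further CXCL13 region was called in 1 library with 13 reads. CCL28, a mucosal ligand of CCR10, had 3 regions, all called only in purified replicate 1 with 15, 15 and 16 reads, the last of them at its promoter.

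**Figure D4:**
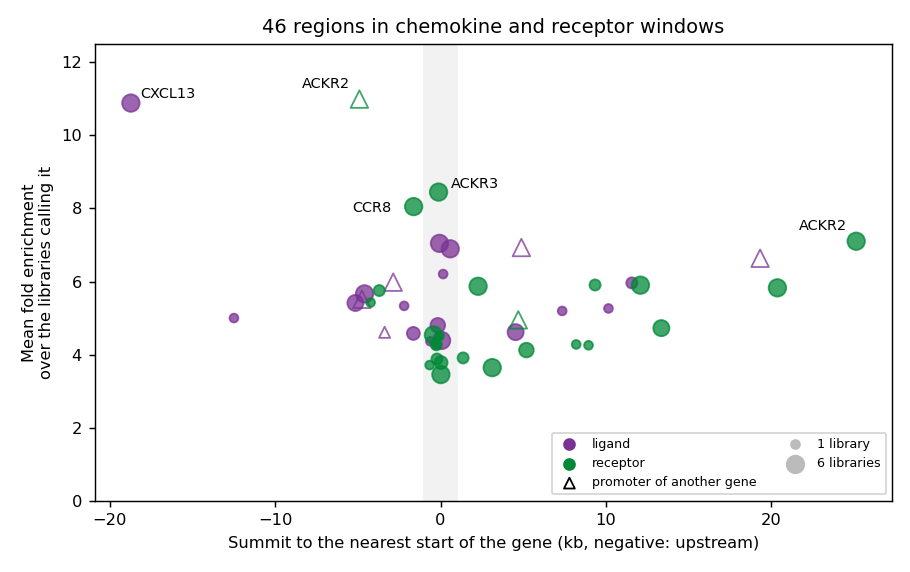
Mean fold enrichment over the libraries that called a region (vertical axis) against the distance of its summit from the nearest coding start of the member in kb (horizontal axis, negative upstream) for all 46 regions. Open triangles lie at the promoter of another gene, larger marks were called in more libraries, and the grey band is 1 kb around the start. The CXCL13 region and the HIGD1A promoter region of ACKR2 stand highest, at 10.9 and 11.0, and both lie outside the band.

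Of 6 ELR ligands, which attract neutrophils through CXCR1 and CXCR2, none was open in all libraries, against 59.6% of all genes. CXCL3 had a promoter region at chr4:74904270-74904993, with 19 and 14 reads in the purified and 16 and 12 reads in the unpurified libraries and no call with the SDS buffer. CXCL8 had an upstream region called in 5 libraries with 17 to 23 reads, which reached the 5 kb flank in 4 of them. CXCL1, CXCL2, CXCL5 and CXCL6 had no peak. Of the 3 interferon-induced ligands of CXCR3, CXCL9 was open only at the ART3 promoter, CXCL10 had 1 promoter peak of 10 reads in SDS replicate 2, and CXCL11 had none.

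Among 18 other ligands, CCL20, CX3CL1 and CXCL17 were open in all libraries and 15 in none, against 59.6% and 23.7% of all genes. CX3CL1, or fractalkine, an adhesive ligand of endothelium and neurons, had a region inside the gene. Its summit lay 588 bp downstream of the nearest coding start, which is internal, and the 5′ end of the gene had no call. That region had 27 and 32 reads with the SDS buffer, 31 and 23 with the purified new buffer, and 43 and 31 with the unpurified new buffer. The groups overlapped there. CCL20, the ligand of CCR6, had 20 and 18, 22 and 21, and 25 and 21 reads at its promoter. Its upstream region, 4595 bp from the start, had 27 and 27, 34 and 34, and 25 and 30 reads in the same order, and a start of a noncoding gene lay within 1 kb. In reads, the SDS libraries were lowest at the promoter of CCL20, and the purified libraries were highest at the upstream region. Fold enrichment kept neither order. At the promoter SDS replicate 2 had 4.38, against 4.28 and 4.15 in the purified libraries. At the upstream region purified replicate 1 had 5.93 and SDS replicate 2 had 5.96. A region in the 3′ flank was called in 5 libraries with 12 to 18 reads. CCL20 and CCR6, a ligand and its receptor, were both open in every library, as were CX3CL1 and CX3CR1. Of all genes, 59.6% were open in every library. CCR6 was called at its own promoter in 1 library and CX3CR1 in none. CCL27 and CCR10 were also open in every library, but only at promoters of other genes. CXCL12 had no peak while its receptor CXCR4 was open, and CXCR5 was called in 1 library while CXCL13 was open in all. These pairs were named after their values were seen.

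Chemokine genes lie in clusters, and these differed in how close open chromatin came. Of the 66 members, 48 lay in 11 clusters with gaps under 250 kb. The cluster from CCL2 to CCL1 on chromosome 17, which holds CCL2, CCL7, CCL11, CCL8, CCL13 and CCL1 in 108.0 kb, had no region, and the nearest region called by all libraries was 617035 to 723060 bp from its genes. The cluster from CXCL8 to CXCL2 on chromosome 4, of 358.7 kb, held 4 regions and none called by all libraries. In the cluster from CCL5 to CCL4L2, with 12 genes in 443.4 kb, CCL3 was the gene with a peak in its window. The pair of CX3CR1 and CCR8 held 6 regions in 70.2 kb, 4 of them called by all libraries.

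The nearest region of all libraries lay at a median of 55286 bp from ligands and 16781 bp from receptors, where the median of all genes was 0 bp. It was more than 100 kb away for 17 of 45 ligands (37.8%), 3 of 21 receptors (14.3%) and 12.0% of all genes.

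Genes that act with the receptors were more often open at the promoter than the 2 of 21 receptors, by count and with no test. The receptor share of 9.52% was itself below the 45.4% of all genes. In a list of 30 signalling genes, 18 had a promoter peak in all libraries, 7 in some and 5 in none, against 45.4% of all genes in all libraries. Open in all were GNAI2, the G protein subunit below most chemokine receptors, with a mean fold enrichment of 8.98, and ARRB2, an arrestin that ends signalling, with 8.20. Not called at the promoter in any library were PIK3CG, PLCB2, RAC2, FERMT3 and GRK2. Of 10 RGS genes, which shut off G proteins, RGS1, RGS2, RGS3, RGS5 and RGS16 were open in all. Of 9 adhesion genes 6 were open in all and 3 in some. Among 10 chemotactic and related genes outside the naming rule, GPR183 and S1PR1, which also position B cells, were open in all, S1PR2 in 2 libraries and 7 in none. For each of these lists the shares of all genes were 45.4% in all libraries and 39.5% in none.

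Letter matches at the summits were counted in the 100 bases on each side of the median summit of each region, on both strands, as a description that names no factor at work. NF-kB matches were in 8 of 46 member regions (17.4%) and 8.37% of all autosomal regions. Among regions called by all libraries the shares were 20% of 20 regions and 9.14%. RUNX (TGTGGT) was in 21.7% of member regions and 23.2% of all, ETS (GAGGAA) in 13.0% and 18.7%, and AP-1 (TGANTCA) in 13.0% and 14.6%. An ETS-IRF composite or OCT (ATGCAAAT) match was in none of the member regions and in 4.03% and 2.57% of all, and EBF1 was in 2.17% of member regions and 0.88% of all. The interferon response letters were in 4.35% of member regions and 6.97% of all. The ETS pattern and the IRF patterns can share bases. Median GC content at the summit was 55.2% in member regions called by all libraries and 52.7% in all such regions.

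The protocols could be compared by call and by pileup. Of member regions that any of the 4 libraries of a pair called, 1 of 43 was called in both purified and neither SDS library, against 1.83% of all autosomal regions, and 1 of 43 in both SDS and neither purified library, against 3.2%. Of 41 regions, 2 were specific to the unpurified new buffer against SDS, against 2.42%, and 1 to SDS, against 2.8%. Of 40 regions, 1 was specific to the unpurified against the purified new buffer, against 2.7%, and 0 the other way, against 1.74%. Counts of 0 to 2 regions cannot be told apart from these shares.

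The regions behind these counts were 3. CXCL3 was called with both new buffers and not with SDS. At CCR1, an inflammatory receptor, the promoter region in an intron of CCR3 was called in both unpurified libraries with 11 reads each and in no other. At CCL27, a region at the promoter of its neighbour was called in both SDS libraries with 17 and 13 reads and in no other. The counts moved when a library was left out. Leaving out a library of a pair loosens the rule, so a count could hardly fall, and the rises do not measure stability. The 1 region specific to the purified new buffer against SDS became 6 without purified replicate 2, 3 without purified replicate 1 and 2 without either SDS replicate. The 1 specific to SDS became 4 without either SDS replicate and 3 without purified replicate 1. The 2 specific to the unpurified new buffer against SDS became 6 without unpurified replicate 2, and the 1 specific to SDS became 4 without SDS replicate 1, 5 without SDS replicate 2 and 2 without unpurified replicate 1. Between the new buffers, the 1 specific to unpurified became 4 without unpurified replicate 2 and 2 without purified replicate 1, and the 0 specific to purified became 6 without purified replicate 2 and 1 without purified replicate 1.

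Summit pileups were compared over 20064 regions called by all libraries on the log2 scale, relative to the median of each library, with limma and Benjamini-Hochberg adjustment over all regions. No region was past 0.05 in any of the 3 contrasts (0% of all regions), members included. At an unadjusted p under 0.05 there were 1539, 1480 and 947 regions (7.67%, 7.38% and 4.72%), and 1, 3 and 3 of the 20 member regions, for purified minus SDS, unpurified minus SDS, and unpurified minus purified. The p values measure the spread between these libraries, which may be technical.

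The largest difference was at the intronic ACKR2 region. Against SDS it was 0.79 ± 0.223 (log2, SE) with the purified and 0.80 ± 0.223 with the unpurified new buffer, higher in 4 of 4 libraries, with limma adjusted p values of 0.595 and 0.603. CXCL17 at the LIPE promoter stood 0.72 ± 0.256 above SDS in the unpurified libraries, with an adjusted p of 0.653 in limma, and CXCL16 at the MED11 promoter 0.53 ± 0.207, with 0.658. Unpurified minus purified, CXCL16 was at 0.65 ± 0.207, CCL3 at 0.49 ± 0.222 and CX3CR1 at -0.48 ± 0.213, each with an adjusted p of 1 in limma. The median over the 20 member regions was 0.11, 0.10 and 0.03 in the 3 contrasts, against 0.03, 0.04 and 0.01 over all regions. None of these differences held against the spread between replicates after adjustment.

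**Figure D5:**
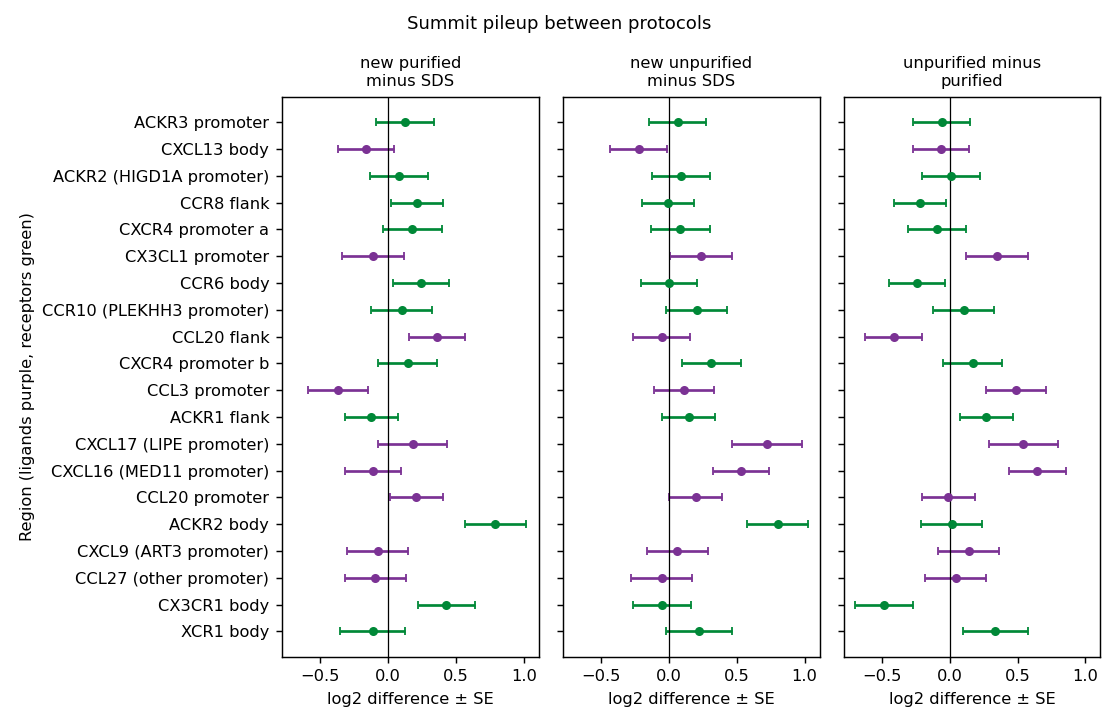
Difference in log2 summit pileup relative to the library median (horizontal axis, bars are SE) for the 20 regions called in all libraries and 3 contrasts, in the same order of rows as the plot of pileups. The ACKR2 body region is farthest from 0 against SDS, at 0.79 and 0.80, and no region passed the adjusted threshold of 0.05.

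The libraries were alike in depth. They held 30136 to 38023 peaks with a median summit pileup of 20 to 22 reads, and the relative depth, from the lowest local background, ran from 1 to 1.24. The deposited lists give no read totals. As to the label, the B-cell genes MS4A1 and EBF1 had a promoter peak in all libraries, 5 of 8 B-cell markers in some and BLK in none. All 8 erythroid markers and 7 of 8 myeloid markers had none, whereas the T-cell markers CD8A and BCL11B had one in every library and the other 6 none. The part of these genes in the results was not tested.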

How the data were processed

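Peak lists of 6 bulk ATAC-seq libraries were analysed. Per the submitters' processing notes the authors used Bowtie2 2.1.0, Picard 1.79 and hg19, and per the study's methods properly paired reads with a mapping quality of at least 30 were kept, duplicates and mitochondrial reads were removed, and peaks were called with MACS2 at q 0.01. No version of MACS2 is named in these sources. The methods describe merging of samples before peak calling, but there is 1 list per library here. The deposited columns hold a score, the fold enrichment at the summit (a ratio), its −log10 p and its −log10 q, and the summit position, all made by the authors.

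From these, the summit pileup and local background of each peak were solved from fold enrichment and p, within 0.001 in −log10 p for 100% of peaks. Peaks overlapping or adjoining across lists were merged into 54338 autosomal regions. Windows were gene bodies of GENCODE version 44 plus 5 kb, overlap was at least 1 bp, and promoters were 1 kb around coding transcript starts. Counts, shares and motif matches carry no test. Pileups were compared with limma 3.58.1 in R 4.3.3. With 2 libraries per group the smallest exact two-sided p is 0.33, so no exact test was run. The same replicate numbers did not deviate together. Coordinates and printed sequence are from GRCh37.

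Members and lists were chosen with earlier results of these data known. Named were members with a promoter peak in any library, the 8 ligand and the 8 receptor regions with the highest mean fold enrichment over 6 libraries away from promoters of other genes (fewer where fewer were called by all), protocol-specific regions, B-cell homing receptors and ligands of activated B cells. Other members and regions were named after their values were seen. Alternatives were a −log10 q of at least 5, 30136 peaks per library, other windows, merging and scaling, each library left out, and a replicate block. The reading without promoters of other genes was added after the data were examined. Overlaps were checked against bedtools 2.31.1 for 19229 genes, and the scripts were tested on simulated data. Scripts ran on pandas 2.3.3, SciPy 1.17.1, NumPy 2.4.6, pysam 0.24.0, matplotlib 3.10.9 and samtools 1.23.1 under Python 3.11.15. Few reads at a summit mean a less precise peak, and library totals were not in the lists. A withheld item is not reported here.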

Additional observations from a re-analysis of the deposited data

How the results depend on the processing

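The receptors were above the ligands in mean share under every alternative run. The difference of 30.2 percentage points was 26.0 with peaks of −log10 q of at least 5, 25.3 with an equal number of peaks, 22.6 without a flank, 22.5 with a flank of 10 kb and 20.2 within 5 kb of the gene start, and 29.3 to 31.2 with 1 library left out. The ligands open in every library were 4 without a flank, 5 around the start and 4 away from promoters of other genes, those open in any library 7 and 9 in the first 2 of these settings, and the receptors open in any library 8 without a flank. With −log10 q of at least 5, 13 regions were called in every library and the 4 protocol-specific counts against or for SDS were 0. With an equal number of peaks, 3 regions were specific to purified against SDS, 1 to unpurified against SDS, and 0 to SDS against purified and to unpurified against purified. With 1 library left out these counts were 1 to 6 for purified against SDS, 1 to 4 for SDS against purified, 2 to 6 for unpurified against SDS, 1 to 5 for SDS against unpurified, 1 to 4 for unpurified against purified and 0 to 6 for purified against unpurified. Leaving out a library of a pair loosens the rule behind its count, so rises there do not measure stability. Of the values for single members and regions, 554 stayed and 156 moved. Some could not move, such as window counts when only the promoter width changed, so this tally overstates how far they held. Most of the values were counts of libraries, which have no sign to reverse. The log2 differences among them kept their sign, but they were picked for an unadjusted p under 0.05 in limma.

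Limma made 0 calls under every alternative scaling and with each library left out, where the remaining library of a group was assumed to vary like the other groups, and the smallest adjusted p over all of them was 0.327. With the replicate number as a block there were also 0 calls, and 1560, 1475 and 944 regions at an unadjusted p under 0.05. The deviations of libraries with the same number had correlations of -0.0042, -0.0026 and 0.0146, so the numbers do not pair the libraries. The ACKR2 difference ran from 0.56 to 1.00 (purified minus SDS) and 0.59 to 1.01 (unpurified minus SDS) over the alternatives. Summits held a median of 20 to 22 reads, and a site without a call is not shown to be closed. The library of highest relative depth, 1.24, held 34438 peaks, and that with the most peaks, 38023, had a relative depth of 1.05.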

Other observations

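CXCR3, the receptor of CXCL9, CXCL10 and CXCL11, lies on chromosome X and was left out by the rule. Its promoter region at chrX:70837931-70838681 was called in all 6 libraries, with 38 and 39 reads with the SDS buffer, 54 and 32 with the purified new buffer, and 44 and 36 with the unpurified new buffer. A region 4242 bp upstream was called in 5 libraries with 20 to 38 reads. The promoters of its ligands CXCL9, CXCL10 and CXCL11 were called in 0, 1 and 0 libraries.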
